A study of Mus musculus with 2 samples.

Results

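The genes described are Foxp3, its relatives Foxp1 and Foxp4, the Runx genes Runx1, Runx2 and Runx3, and Cbfb, 7 of 55536 annotated genes. They were chosen by gene symbol in GENCODE M21, and all 7 were found, with 82 annotated transcripts. The libraries were made from polyadenylated RNA of activated regulatory T cells, taken from a male of strain Foxp3CreERT2 x Rosa26YFP at 4 months of age. The labels trace the cells to a haematopoietic cell of bone marrow and give no tissue of isolation. There is 1 group, and its 2 libraries are technical replicates 1 and 2 of biological replicate 1. Each mean ± SD below is over these 2 libraries (n = 2), and no SD or p-value refers to animals. The strain carries a tamoxifen-inducible Cre at Foxp3 itself, in both libraries, and the annotation used holds no inserted sequence. Its part in the Foxp3 values was not tested.

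Foxp3 is the forkhead transcription factor that defines regulatory T cells. Foxp1 and Foxp4 share its forkhead DNA-binding domain, and Foxp1 is known for keeping naive T cells quiescent. Runx proteins bind DNA through their Runt domain and bind it tightly only with Cbfb, a partner that does not itself contact DNA. Foxp3 is known to bind Runx1, and Runx1 with Cbfb is needed to keep Foxp3 expressed. In T cells Runx3 is best known from the CD8 lineage, and Runx2 is the master regulator of bone-forming osteoblasts. Each Runx gene can start at a distal or at a proximal promoter, and the protein then begins with a different stretch of residues.

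The labelled cell type was checked against marker genes by TPM, a share of all transcripts, a measure corrected for transcript length. Counts of genes that reach a TPM, here and below, use the mean of the 2 libraries. All 8 T cell markers were above 100 TPM, with sums of 10909 and 11390 TPM in libraries 1 and 2. Of 5 monocyte and macrophage markers 2 reached 1 TPM (sums 3.85 and 6.17 TPM, Cd14 at 0), and of 3 natural killer markers 1 did (1.63 and 2.15 TPM, Ncr1 at 0). None of 4 megakaryocyte markers reached 1 TPM (0.51 and 0.54 TPM), and 1 of 4 stem and progenitor markers did (2.75 and 1.48 TPM). The libraries held 15076048 and 14635787 estimated gene reads.

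Coding Runx models from the distal and the proximal promoter begin with different coding bases, and the values below turn on these models. The first 75 coding bases of a distal and a proximal model of each gene are given, 5′ to 3′, from the GENCODE M21 transcripts on mm10. Capitals mark the coding bases that the other promoter's model lacks.
Runx1-201 (distal): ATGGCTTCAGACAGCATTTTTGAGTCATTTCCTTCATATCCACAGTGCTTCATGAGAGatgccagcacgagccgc
Runx1-203 (proximal): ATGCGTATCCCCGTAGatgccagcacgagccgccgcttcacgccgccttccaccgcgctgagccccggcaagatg
Runx2-202 (distal): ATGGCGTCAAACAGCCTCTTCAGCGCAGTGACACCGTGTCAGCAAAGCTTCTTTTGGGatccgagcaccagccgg
Runx2-203 (proximal): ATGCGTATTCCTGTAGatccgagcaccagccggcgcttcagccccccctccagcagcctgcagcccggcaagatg
Runx3-201 (distal): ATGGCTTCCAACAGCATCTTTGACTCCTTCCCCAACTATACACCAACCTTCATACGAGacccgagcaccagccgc
Runx3-202 (proximal): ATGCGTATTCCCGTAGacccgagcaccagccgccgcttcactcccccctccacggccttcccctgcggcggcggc
In all 3 genes the distal model has 58 such bases and the proximal model 16. Compared base by base without gaps, the distal stretches of Runx1 and Runx3 are identical at 41 of 58 bases (70.7%). Runx1 and Runx2 share 34 of 58 (58.6%), and Runx2 and Runx3 share 33 of 58 (56.9%). The proximal stretches are closer, with 14 of 16 bases (87.5%) shared by Runx1 and Runx2, and 15 of 16 (93.8%) in each of the other pairs. On mm10 the printed bases of Runx1-201 span chr16:92695721-92825646 and those of Runx1-203 chr16:92695679-92695753, both on the minus strand. Those of Runx2-202 span chr17:44735602-44814226 and those of Runx2-203 chr17:44735560-44735634, also on the minus strand. The plus-strand Runx3-201 spans chr4:135121106-135152804, and Runx3-202 spans chr4:135152772-135152846. The 3 distal stretches cross an intron, so each span is far longer than 75 bases.

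Foxp3 and Cbfb each have a coding exon that their leading transcript lacks. It is given in capitals as it stands in a transcript that has it, with 20 coding bases on each side, followed by the junction in the leading transcript.
Foxp3-210: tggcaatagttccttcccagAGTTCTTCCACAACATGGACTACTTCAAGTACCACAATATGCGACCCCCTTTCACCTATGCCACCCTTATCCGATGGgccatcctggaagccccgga
Foxp3-207: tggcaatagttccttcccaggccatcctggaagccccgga
Cbfb-201: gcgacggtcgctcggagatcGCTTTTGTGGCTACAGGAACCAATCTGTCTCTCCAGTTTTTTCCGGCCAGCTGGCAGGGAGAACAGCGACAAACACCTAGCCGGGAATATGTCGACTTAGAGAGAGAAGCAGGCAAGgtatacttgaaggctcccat
Cbfb-203: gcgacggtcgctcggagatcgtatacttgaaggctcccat
The Foxp3 exon has 77 bases (chrX:7592159-7592235, plus strand), not a multiple of 3, and encodes the beginning of the forkhead domain. The Cbfb exon has 117 bases (chr8:105178593-105178709, plus strand), a multiple of 3, and lies in the part of the protein that binds Runx.

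All 7 genes were expressed in both libraries, over a range from 3.08 to 157 TPM on average. Foxp1 was by far the highest, at 159.05 and 154.78 TPM in libraries 1 and 2 (157 ± 3.02). Cbfb followed at 37.18 and 39.61 TPM (38.4 ± 1.72), and Runx1 at 28.16 and 25.39 TPM (26.8 ± 1.96). Foxp3 came next, at 23.82 and 20.91 TPM (22.4 ± 2.06). Runx3, Runx2 and Foxp4 lay below Foxp3. Runx3 had 13.29 and 14.17 TPM (13.7 ± 0.622) and Runx2 6.51 and 8.23 TPM (7.37 ± 1.22). Foxp4 had 3.47 and 2.68 TPM (3.08 ± 0.559). No 2 of the genes overlapped in their library values. The deposited intervals, used here as a score of uncertainty, did overlap for Runx1 and Foxp3. In library 1 they ran from 23.1 to 28.3 TPM for Runx1 and from 19.0 to 23.9 TPM for Foxp3, and in library 2 from 20.6 to 25.6 and from 17.3 to 21.5 TPM. No other neighbours in the order overlapped in these intervals. The intervals surround a second deposited estimate, the posterior mean, which runs lower for Foxp1 (144 ± 4.43 TPM), so the TPM of Foxp1 lies above its interval, as does that of Cbfb (posterior mean 35.1 ± 1.37 TPM). In these bulk libraries fewer cells of a type and less RNA per cell cannot be told apart.

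**Figure D1:**
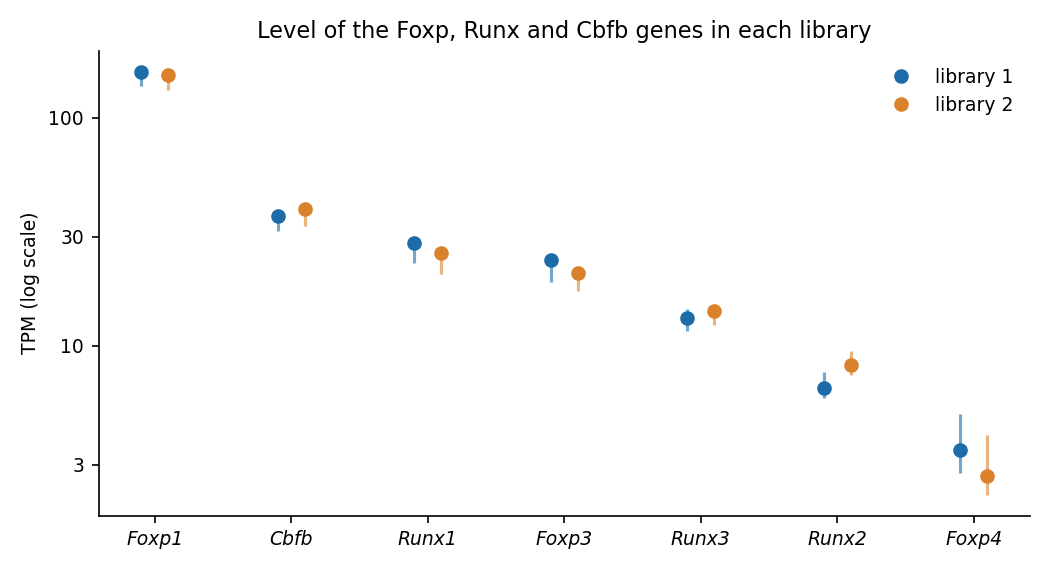
TPM of each gene (log scale) in library 1 (left point) and library 2 (right point), with the deposited interval of the posterior mean as a vertical line. The points run from Foxp1 at 159.05 and 154.78 TPM to Foxp4 at 3.47 and 2.68 TPM, and only the lines of Runx1 and Foxp3 overlap within a library among neighbours.

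Among 22028 protein-coding genes, whose median was 0.593 TPM, Foxp1 ranked 767 and Cbfb 3049. Runx1 ranked 3958, Foxp3 4443, Runx3 5894, Runx2 7468 and Foxp4 9079. The reads behind these levels were estimated at 5563 and 5028 for Foxp1 in libraries 1 and 2, and at 445 and 396 for Foxp3. Runx1 had 1154 and 953 reads, Cbfb 1166 and 1120, and Runx3 632 and 636. Runx2 had 463 and 553 reads and Foxp4 111 and 94.

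The genes differ widely in position and size. Foxp3 (ENSMUSG00000039521.13) lies at chrX:7573644-7595245 and Cbfb (ENSMUSG00000031885.14) at chr8:105170674-105217989, both on the plus strand. Foxp1 (ENSMUSG00000030067.17) spans chr6:98925338-99522721 and Foxp4 (ENSMUSG00000023991.16) chr17:47867133-47924645, both on the minus strand. Runx1 (ENSMUSG00000022952.17) lies at chr16:92601466-92826149 and Runx2 (ENSMUSG00000039153.16) at chr17:44495987-44814797, on the minus strand. Runx3 (ENSMUSG00000070691.10) lies at chr4:135120652-135177990, on the plus strand. The longest annotated coding region has 561 bases in Cbfb, 1269 in Runx3, 1287 in Foxp3 and 1395 in Runx1. It has 1788 bases in Runx2, 2055 in Foxp4 and 2118 in Foxp1.

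A second deposited table gives whole-number reads per gene on GENCODE M4, and in it Foxp3 stood higher. Its counter and filters are not stated. It holds 3478224 and 3475360 reads, 23.1% and 23.7% of the estimated gene reads of libraries 1 and 2. Foxp3 had 333 and 305 reads there, 75.9% ± 1.55 of its estimated reads. Foxp1 had 1582 and 1497 (29.1% ± 0.944) and Foxp4 35 and 18 (25.3% ± 8.76). The Runx genes and Cbfb had far smaller shares. Runx1 had 114 and 114 reads (10.9% ± 1.47), Runx2 23 and 41 (6.19% ± 1.73), Runx3 39 and 37 (5.99% ± 0.250) and Cbfb 92 and 89 (7.92% ± 0.0397).

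Over 8548 protein-coding genes with 100 or more estimated reads in each library, the median share was 40.3%. The share of Foxp3 was above that of 94.5% of these genes, and that of Foxp1 above 33.1%. Those of Runx1 (11.2%), Cbfb (8.42%), Runx2 (6.91%) and Runx3 (6.72%) were above far fewer. Across these genes the share moved with the coding part of the transcripts that held the reads (Spearman rho 0.572, Pearson r 0.516, across genes, which are not independent replicates and share both libraries). It also fell with depth, with a median of 44.2% at 100 to 1000 reads and 5.05% at 10000 or more. The actin gene Actb, for example, had 390739 and 386449 estimated reads in libraries 1 and 2 and 1991 and 1976 whole-number reads. By annotation the coding part was 62.2% of the transcript bases for Foxp3, weighted by its reads. It was 38.5% for Foxp1, 50.1% for Foxp4, 15.2% for Runx1, 27.0% for Runx2, 32.7% for Runx3 and 18.2% for Cbfb. Foxp3 was therefore the only 1 of the 7 genes whose whole-number share exceeded its annotated coding share, as 36.7% of the 8548 genes did.

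**Figure D2:**
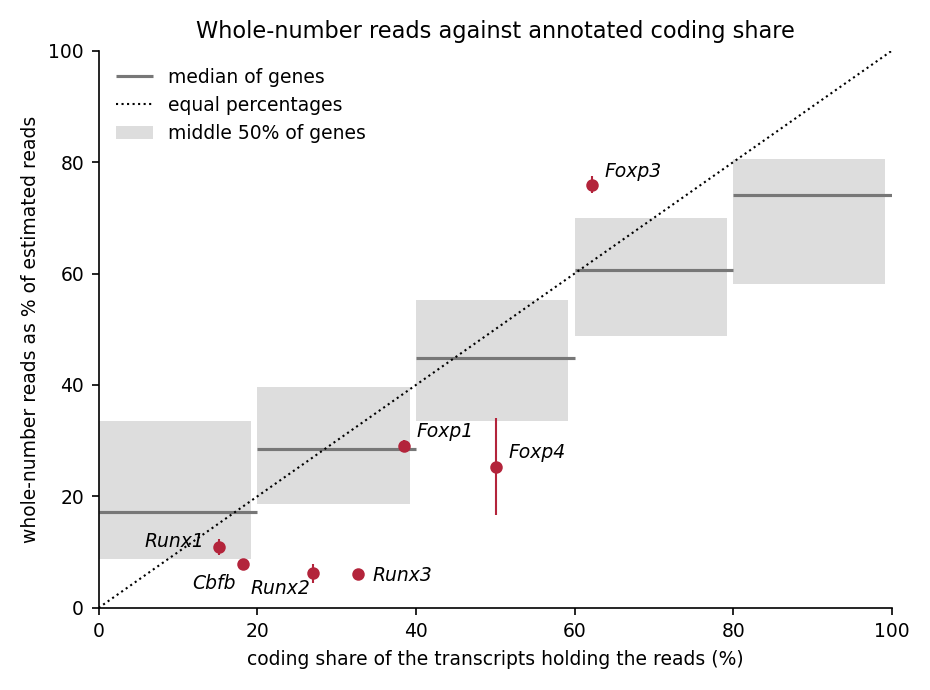
Whole-number reads as a percentage of estimated reads (vertical axis) against the annotated coding share of the transcripts holding the reads (horizontal axis, percent). Red points with SD bars are the 7 genes over 2 libraries, grey boxes and lines the middle 50% and median of protein-coding genes in each bin, and Foxp3 lies above the dotted line of equal percentages while the other 6 lie below it.

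Per kilobase of longest coding region and per 1000000 reads, the whole-number table gave 209 ± 8.04 for Foxp1 and 71.3 ± 4.38 for Foxp3. The values were 46.4 ± 1.06 for Cbfb and 23.5 ± 0.0137 for Runx1, so Foxp3 stood at place 2 by this measure, against place 4 by TPM. Runx3 had 8.61 ± 0.316, Runx2 5.15 ± 2.05 and Foxp4 3.71 ± 1.68. Runx2 and Foxp4 overlapped, with 3.70 and 6.60 for Runx2 and 4.90 and 2.52 for Foxp4 in libraries 1 and 2. The ratio of Runx1 to Foxp3 was 1.20 ± 0.0227 by TPM and 0.330 ± 0.0205 by this measure. That of Cbfb to Foxp3 was 1.73 ± 0.236 by TPM and 0.652 ± 0.0252, and that of Foxp1 to Foxp3 was 7.04 ± 0.513 and 2.93 ± 0.0677. For each of these ratios both libraries fell on the same side of 1. These places and ratios compare genes whose reads may be counted to different extents. The whole-number share falls with depth across genes, but it also differed at comparable depth. Foxp3, Runx2 and Runx3 had 445, 463 and 632 estimated reads in library 1, and mean shares of 75.9%, 6.19% and 5.99%. Among genes with a similar annotated coding share, Foxp3 was above the upper quartile (70.1%). Runx2 and Runx3 (18.6%), Cbfb (8.73%) and Foxp4 (33.5%) were below the lower quartile. Foxp1 and Runx1 lay between the quartiles. What set these shares was not tested. By their means, Foxp1, Foxp4 and the Runx genes had the same order among themselves by TPM and by whole-number reads per coding kilobase.

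**Figure D3:**
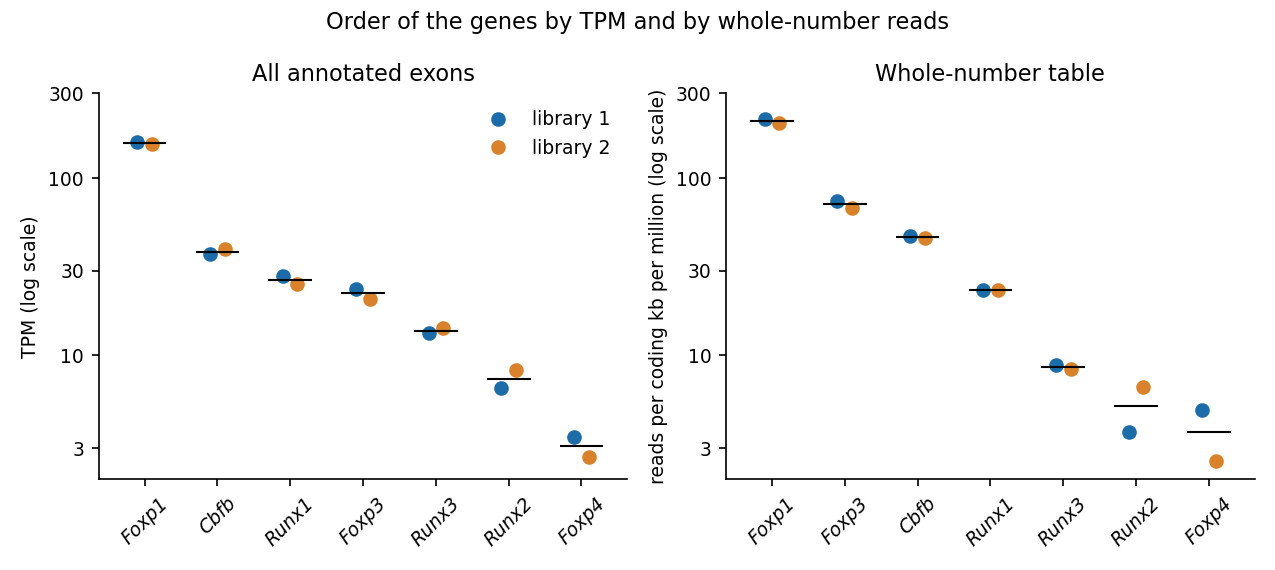
The 7 genes by TPM (left) and by whole-number reads per coding kilobase, scaled to the library's reads (right), both on a log scale and sorted by the mean, which is the black line; blue is library 1 and orange library 2. Foxp3 is at place 4 on the left with 22.4 and at place 2 on the right with 71.3.

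The levels of Cbfb and of the summed Runx genes, which pair as proteins, were compared for whole genes, and their order differed between the 2 measures. Whole-gene TPM includes Cbfb-203, which skips the printed exon, at 65.7% of Cbfb TPM. It also includes Runx1-207, which has no coding region, at 39.4% of Runx1 TPM. The ratios therefore say nothing of the amounts of paired protein. The summed Runx TPM was 47.96 and 47.79 in libraries 1 and 2, and Cbfb was 0.802 ± 0.0379 of it by TPM and 1.25 ± 0.0870 of it by whole-number reads per coding kilobase. Runx1 made up 55.9% ± 3.95 of the summed Runx TPM, Runx3 28.7% ± 1.37 and Runx2 15.4% ± 2.58. By whole-number reads per coding kilobase the shares were 63.1% ± 2.93, 23.2% ± 1.93 and 13.7% ± 4.86. Runx1 led the Runx genes by these measures in both libraries. By TPM of protein-coding transcripts only, Runx1 had 15.2 and 13.7 TPM and Runx3 13.3 and 14.2 TPM in libraries 1 and 2, so Runx3 led in library 2.

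Foxp3 reads were assigned mostly to a transcript that does not encode the full protein. Foxp3-207 held 335 and 327 estimated reads in libraries 1 and 2, or 78.9% ± 5.14 of the gene's reads and 82.0% ± 9.44 of its TPM. It is annotated for nonsense-mediated decay, the class for transcripts with an early stop codon, and encodes 335 residues, against 429 in the full-length models. It lacks the 77-base exon printed above and holds an 83-base noncoding exon (chrX:7585812-7585894). Foxp3-207 is also the only model that joins this noncoding exon to the short 3′ end, at chrX:7593105.

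In the annotation, skipping of the 77-base exon and joining of the noncoding exon to the short 3′ end occur only together, in Foxp3-207. Which of these differences placed the reads was not tested. The 4 models with the noncoding exon held 361 and 357 reads, and the 4 models of 3000 bases or more held 31.8 and 30.3 reads. All 8 models that span and keep the 77-base exon held 94.4 and 69.0 reads, 19.3% ± 2.67 of the gene's reads. Among them, Foxp3-204, with 2205 bases after its coding region, had 25.9 and 16.9 reads, and Foxp3-206 had 17.6 and 30.9. Foxp3-208, also among them, had 28.6 and 7.87 reads. Foxp3-209, a fragment without that exon's region and so not among them, had 15.6 and 0. Library 1 was higher for Foxp3-204, Foxp3-208 and Foxp3-209, and lower for Foxp3-206. The deposited SD of Foxp3-207's reads was 14.7 and 11.4, and those of these 4 models ran from 4.21 to 10.9. Foxp3-210, which keeps the 77-base exon and has the same ends as Foxp3-207, had 16.4 and 0 reads. Its deposited SDs were 13.9 and 7.44. By transcripts annotated as protein-coding only, Foxp3 had 5.88 and 2.37 TPM (4.13 ± 2.48) and stood at place 6 of 7. No file gives reads per exon or junction, so whether reads cross the printed junction of Foxp3-207 was not measured.

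Neighbouring genes overlap Foxp3 on both sides. Flicr, a noncoding RNA gene on the same strand over its 5′ end, was assigned 195 and 169 reads (4.83 and 7.90 TPM) in libraries 1 and 2. On the opposite strand, Ccdc22 at the 3′ end had 157 and 152 reads, Ppp1r3f at the 5′ end 109 and 114, and Gm36995 19.8 and 29.9. Whether counting used strand is not stated, so reads in the shared stretches cannot be told apart by strand.

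Foxp1 had the most annotated transcripts, 31, of which 10 had no reads. By reads Foxp1-206 led in both libraries, with 2730 and 2448 estimated reads (48.9% ± 0.279). It encodes 673 residues and has 4755 bases after the coding region. By TPM its share was 19.6% ± 0.332, level with the 607-base Foxp1-218 at 19.7% ± 1.81, so that Foxp1-206 led in library 1 and Foxp1-218 in library 2. Foxp1-218 held only 203 and 212 reads, 3.94% ± 0.406. Its coding region of 111 residues is a fragment that runs to the transcript's end. The 12 models with a complete coding region held 81.7% ± 1.73 of the reads and 49.2% ± 0.989 of the TPM. Foxp1-204, encoding 705 residues, had 940 and 750 reads and Foxp1-228, encoding 706, had 595 and 392. Foxp1-225, encoding 577, had 186 and 291. The deposited SDs of Foxp1-204 (392 and 402 reads) and Foxp1-206 (380 and 393 reads) were far larger than that of the gene (7.39 and 7.40 reads). The retained-intron models Foxp1-213 and Foxp1-211 held 388 and 433, and 102 and 123 reads. On the same strand, the protein-coding gene model Gm20696 held 334 and 242 reads, Gm49348 12.7 and 17.2, and Gm20705 11 and 6.

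Foxp4, the lowest gene, had 8 transcripts, 4 of them without reads. Foxp4-204, encoding 672 residues, led with 80.2 and 78.2 reads, 77.7% ± 7.69 of reads and 55.1% ± 11.2 of TPM. Foxp4-203, encoding 683, had 23.7 and 11.7 reads. The retained-intron models Foxp4-206, with 5.62 and 4.16 reads, and Foxp4-208, with 1.43 and 0, were among the 3 models of that type that made up 29.9% ± 6.98 of the gene's TPM and 5.39% ± 1.36 of its reads. Shares of Foxp4 by TPM therefore rest on few reads of short models.

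**Figure D4:**
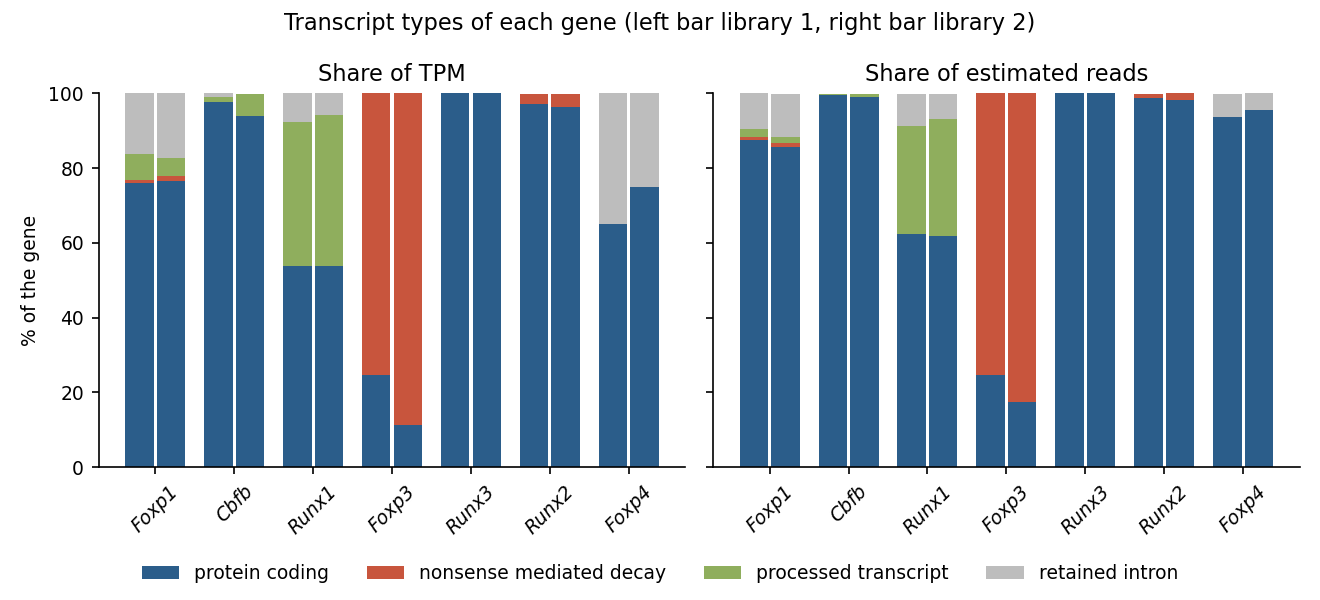
Share of each gene's TPM (left) and of its estimated reads (right), in percent, by annotated transcript type; for each gene the left bar is library 1 and the right bar library 2. Foxp3 stands apart with nonsense-mediated decay at 82.0% ± 9.44 of TPM and 78.9% ± 5.14 of reads, while Runx3 is wholly protein-coding in both.

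Runx1 reads were assigned mainly to models with distal starts, within 1000 bases of the most upstream start. These held 1017 and 860 reads in libraries 1 and 2, 89.2% ± 1.53 of reads and 82.5% ± 2.97 of TPM. The other starts held 137 and 92.3 reads. Runx1-201, encoding 465 residues with 4192 bases after them, led by reads with 674 and 552 (58.2% ± 0.356). Runx1-207, a shorter model at the distal start annotated as a processed transcript with no coding region, led by TPM with 39.4% ± 1.31 and held 334 and 298 reads. Its deposited SD was small, 2.48 and 1.83 reads. Protein-coding models with other starts, Runx1-202, Runx1-203 and Runx1-205, held 36.3 and 26.6 reads together. Of these reads Runx1-205 held 26.5 and 17.6, Runx1-202 9.46 and 8.54, and the proximal Runx1-203 only 0.30 and 0.41. Runx1-205 begins at chr16:92695495, past the printed coding bases of Runx1-203. Runx1-202, Runx1-203 and Runx1-205 have 2002, 260 and 527 bases after the coding region, against 4192 in Runx1-201. Whether the start or the 3′ end placed the reads was not tested. Runx1-206, a retained-intron model at the proximal start, held 100 and 65.7 reads.

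Runx3 and Runx2 were still more uniform. All 632 and 636 Runx3 reads were assigned to the distal Runx3-201, which encodes 423 residues and has 2161 bases after them. The proximal Runx3-202 had 0 reads in both libraries, which allows a share of up to 0.475% and 0.472% of the gene's reads. Runx3-202 has 352 bases after its coding region, and whether the start or the 3′ end placed the reads was not tested. The share of the posterior mean TPM held by Runx3-201 was lower, at 91.3%. Runx2-202, which encodes 528 residues, held 455 and 543 reads, and distal starts together held 98.5% ± 0.286 of Runx2 reads. Other starts held 6.18 and 9.62 Runx2 reads, none of them in the 5 protein-coding models, which allows those models up to 0.648% and 0.542%. These limits cover counting error only, not how reads were shared among models. Runx2-203 ends at the same base as Runx2-202, and the deposited SD of Runx2-203's reads was 14.9 and 14.7 in libraries 1 and 2. Its share of the posterior mean TPM was 2.98% and 2.07%. On the opposite strand of Runx2, Supt3 had 175 and 173 reads and Runx2os1 had 11 and 9.

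**Figure D5:**
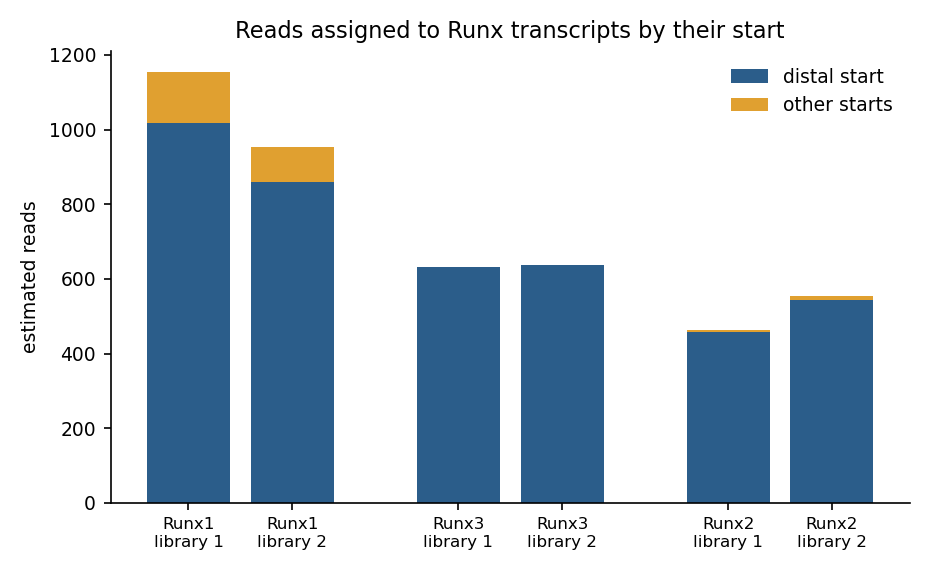
Estimated reads of Runx1, Runx3 and Runx2 in libraries 1 and 2, stacked by whether the transcript begins at the distal start or elsewhere. Other starts hold 137 and 92.3 reads of Runx1, 0 of Runx3 and 6.18 and 9.62 of Runx2.

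The promoters behind these starts differ in base composition. RefSeq windows of 250 bases before the start (GRCm38.p6, the assembly of mm10) matched all 7 genes, with 12 windows. The windows of the 2 Runx1 and 2 Runx3 promoters are printed, cut short where an annotated exon begins inside the window, 5′ to 3′ on the gene's strand. Capitals mark matches to the Runx motif TGTGGT on either strand.
Runx1 distal, chr16:92826150-92826324: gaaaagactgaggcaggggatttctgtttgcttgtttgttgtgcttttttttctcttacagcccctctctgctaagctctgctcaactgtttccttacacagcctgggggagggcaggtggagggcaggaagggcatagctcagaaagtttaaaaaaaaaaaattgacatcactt
Runx1 proximal, chr16:92697330-92697579: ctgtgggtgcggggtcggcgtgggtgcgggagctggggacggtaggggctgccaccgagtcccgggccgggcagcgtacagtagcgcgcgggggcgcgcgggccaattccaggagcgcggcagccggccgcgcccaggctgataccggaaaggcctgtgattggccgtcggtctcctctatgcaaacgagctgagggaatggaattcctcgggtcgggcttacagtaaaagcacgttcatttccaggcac
Runx3 distal, chr4:135120395-135120644: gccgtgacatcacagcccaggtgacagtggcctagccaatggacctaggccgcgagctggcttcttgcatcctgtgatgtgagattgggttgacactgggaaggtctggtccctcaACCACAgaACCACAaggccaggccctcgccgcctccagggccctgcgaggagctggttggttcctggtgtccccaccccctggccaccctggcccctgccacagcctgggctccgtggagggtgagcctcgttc
Runx3 proximal, chr4:135152295-135152495: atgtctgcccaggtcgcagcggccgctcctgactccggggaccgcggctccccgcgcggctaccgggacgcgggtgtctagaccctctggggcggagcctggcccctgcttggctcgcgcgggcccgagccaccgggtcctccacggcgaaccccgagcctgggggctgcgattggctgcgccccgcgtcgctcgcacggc
The whole distal window of Runx1 has a GC content of 45.6% and 2 CpG dinucleotides, and the proximal window 67.6% and 27. Models with a distal annotated start held most Runx1 reads, but where the reads themselves begin was not measured. For Runx3 the distal window has 65.2% and 8, and the proximal window 78.8% and 38. The distal window of Runx2 has 44.8% and 0, and the median of 32851 windows is 52.4% and 6. The distal Runx3 window holds 2 matches to TGTGGT, both read as ACCACA on the gene's strand, and that of Runx2 holds 1. The other 10 windows hold none, and 14.0% of all windows hold at least 1. The forkhead motif TGTTTAC or its reverse complement was in none of the 12 windows and in 3.17% of all windows. With no forkhead match in the 12 windows, matches of the 2 motifs could not overlap there. A match is a description of the letters and says nothing of binding.

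Cbfb reads were divided between models that keep or skip the 117-base exon. Cbfb-203, which skips it and encodes 148 residues, held 704 and 778 reads in libraries 1 and 2, 64.9% ± 6.46 of reads and 65.7% ± 4.45 of TPM. Cbfb-201, encoding 187 residues, held 209 and 136 reads, and Cbfb-202, encoding 182, held 249 and 165. Library 1 was lower for Cbfb-203 and higher for the other two. The deposited SDs were 56.0 and 52.2 reads for Cbfb-203, 48.4 and 39.6 for Cbfb-201 and 40.8 and 40.0 for Cbfb-202. The noncoding Cbfb-206 had 0 and 11.7 reads. Cbfb-203 also differs from the other two at its start, with 31 bases before the coding region, against 302 in Cbfb-201 and 287 in Cbfb-202. Which of these differences placed the reads was not tested.

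Over all 7 genes, 31 of 82 transcripts had no reads. Ranked by reads, both libraries had the same leading transcript in 7 of 7 genes, and ranked by TPM in 6 of 7, the exception being Foxp1. It was the same by reads and by TPM for 5 genes, the exceptions being Foxp1 and Runx1.

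The 2 libraries were compared gene by gene with an exact binomial test on rounded estimated reads, with Benjamini-Hochberg adjustment over 17271 genes and a threshold of 0.05. This compares libraries of 1 biological sample, not conditions, and its p-values cover counting error only. Of the 7 genes 3 passed, against 24.3% of all genes tested. The tested genes include those with as few as 10 summed reads, and the test can call smaller ratios where reads are more. Percentages at matched depth were not computed, here or for the lists below. Foxp1 was higher in library 1 by a log2 ratio of 0.10 (exact binomial test, adjusted p = 0.00221) and Runx1 by 0.23 (adjusted p = 0.00211). Among all genes 11.6% were higher in library 1. Runx2 was lower in library 1, with a log2 ratio of -0.30 (exact binomial test, adjusted p = 0.00739), as were 12.7% of all genes. Foxp3, with a log2 ratio of 0.13, did not pass (exact binomial test, adjusted p = 0.416). Foxp4 (0.20, adjusted p = 0.580), Runx3 (-0.052, adjusted p = 0.743) and Cbfb (0.015, adjusted p = 0.936) did not pass this exact test either. The median absolute log2 ratio was 0.13 over the 7 genes and 0.23 over all genes tested. With the whole-number reads 0 of the 7 genes passed, against 9.95% of all genes tested. With edgeR's exact test at an assumed dispersion of 0.01 between libraries 0 of the 7 passed, against 2.85% of all genes tested.

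Genes that act with these factors were described by fixed lists. All 20 listed partners of the Foxp3 complex were above 10 TPM on average, with a median of 43.0 TPM, and the acetyltransferase gene Ep300 was below it in library 2 (16.4 and 9.16 TPM). The highest were Rbbp4 at 307 ± 7.12 TPM and Rbbp7 at 126 ± 6.83, histone-binding subunits of the NuRD complex, and the histone deacetylase Hdac1 at 178 ± 11.4. The lowest was the NuRD subunit Mta1 at 12.3 ± 0.255 TPM. By the exact binomial test 3 of the 20 were called higher and 5 lower in library 1, against 11.6% and 12.7% of all genes.

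Of 14 Runx cofactors 10 reached 10 TPM on average, and the other 4 averaged below 1 TPM. The corepressor Ncor1 was highest at 143 ± 0.198 TPM, followed by Aes, a short relative of the Groucho corepressors, at 85.9 ± 6.90 TPM and the acetyltransferase Crebbp at 45.5 ± 0.198 TPM. Cbfa2t3 was lowest at 0.105 ± 0.0636 TPM. In the same test 1 of the 14 was called higher and 2 were called lower in library 1, against 11.6% and 12.7% of all genes.

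Of 11 other forkhead genes 10 reached 1 TPM, with a median of 6.67 TPM, and 3 reached 10 TPM. Foxn3 was at 106 ± 1.96 TPM, Foxn2 at 27.9 ± 0.841 and Foxo1, which acts in regulatory T cell development, at 22.4 ± 0.707 TPM. Foxp1 thus stood above all 11, and Foxp3 lay at the level of Foxo1. Foxd2 was lowest at 0.200 ± 0.0990 TPM. The test called 2 of the 11 higher and 0 lower in library 1, against 11.6% and 12.7% of all genes.

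Genes set by Runx factors and ThPOK in the choice of CD4 or CD8 lineage were mixed. Of 8 listed, 7 reached 1 TPM. Cd4 had 212 ± 43.8 TPM, the integrin gene Itgae 79.4 ± 11.0, Cd8b1 12.4 ± 3.44 and Zbtb7b, which encodes ThPOK, 10.2 ± 0.361 TPM. Eomes was lowest at 0.195 ± 0.177 TPM. The test called 0 of the 8 higher and 4 lower in library 1, against 11.6% and 12.7% of all genes. The 3 cytotoxic T cell markers, all also in this list, summed to 15.3 and 23.2 TPM in libraries 1 and 2. Cd8b1 (9.94 and 14.8 TPM) and Prf1 (3.88 and 7.56 TPM) were called lower in library 1. Cd8a, at 1.43 and 0.79 TPM, was higher in library 1 and was not called. Their part in the level of Runx3 was not tested. Of 4 osteoblast markers only Alpl had reads, at 0.41 and 1.75 TPM, beside Runx2 at 6.51 and 8.23 TPM.

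All 8 listed genes that Foxp3 is known to induce were above 10 TPM, with a median of 235 TPM. Tnfrsf18, the receptor GITR, was highest at 580 ± 4.07 TPM, then Ikzf2, which encodes Helios, at 468 ± 3.02 and the costimulatory receptor gene Icos at 452 ± 2.72. Lrrc32, which encodes the TGF-beta docking receptor GARP, was lowest at 52.5 ± 13.0 TPM, still above Foxp3 itself. Of 8 listed genes that Foxp3 is known to repress, 4 reached 10 TPM, with a median of 43.0 TPM. Ptpn22 had 246 ± 24.5 TPM, the interleukin 7 receptor gene Il7r 241 ± 2.66 and Zap70 149 ± 27.4, and the cytokine gene Il2 was lowest at 1.02 ± 0.226 TPM. In each of these lists the test called 2 of the 8 genes higher and 3 lower in library 1, against 11.6% and 12.7% of all genes. Many of these genes have far more reads than most genes tested. Ikzf2, with 23837 and 22281 reads in libraries 1 and 2, was called at a log2 ratio of 0.055. Foxp4, with 111 and 94 reads, was not called at 0.20. An excess of calls in these lists beyond their depth was not tested.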

How the data were processed

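The 2 libraries form 1 group, so no conditions were compared. Per the labels the RNA was sheared to fragments of 100 to 300 bases. For each library the authors deposited gene and transcript tables on mm10 with GENCODE M21, per the file headers and listings, with an expected count (estimated reads), a TPM, a percent of gene TPM per transcript, and posterior means with SDs and intervals. A further deposited table holds a whole-number count per gene on GENCODE M4. Not given in the sources used here are the quantification tool, the counter and the strand setting. The gene length exceeds the effective length by 49 bases. The SDs and interval bounds were used as deposited, as a score of uncertainty.

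Expected counts were rounded and summed over genes. Rows naming no gene (0.142% and 0.186% of reads in libraries 1 and 2) were left out. The whole-number table has 22457 rows, of which 22195 matched M21. Genes with 10 or more summed reads entered an exact two-sided binomial test against library 1's 50.7% of gene reads. Log2 ratios add 0.5 to each count. A share given for 0 reads is limited by 3 reads. Transcripts were named at 5% or more of a gene's TPM or reads in either library, overlapping genes at 10 or more reads in either library, and of each list the 3 highest and the lowest, plus Zbtb7b, added after its values were seen. The result of 1 marker list is not reported here. The other named transcripts and marker genes illustrate a sum. The members, lists and rules were chosen with earlier results of these data known. The labels name technical libraries of 1 sample, and the p-values of the binomial test cover counting error only. The script was tested on simulated data. Tools were Python 3.11.15, numpy 2.4.6, pandas 2.3.3, scipy 1.17.1, matplotlib 3.10.9, and for alternatives R 4.3.3 with edgeR 4.0.16 and DESeq2 1.42.0.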

Additional observations from a re-analysis of the deposited data

How the results depend on the processing

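No paired analysis was possible because there is 1 group only. The 3 of 7 genes called between the libraries stayed 3 with TMM sizes, with DESeq2 size factors and without a filter. In all, 4198 genes (24.3% of those tested) became 4206 (24.4%), 4233 (24.5%) and 3696 (12.4% of 29872 genes). With whole-number M4 reads the exact binomial test called 0 of the 7 genes and 1092 (9.95%) in all, from fewer reads and fewer genes tested (10978). With edgeR's exact test at an assumed dispersion of 0.01 it was 0 of the 7 and 492 (2.85%) in all. In the whole-number table the log2 ratio turned for Runx1 (-0.0012, 114 reads in each library) and for Runx3 (0.074). It was 0.078 for Foxp1 (adjusted p = 0.398) and -0.82 for Runx2 (adjusted p = 0.168, exact binomial test). Mean TPM moved by more than the SD in 3 of 7 genes with the posterior mean and in 4 with protein-coding transcripts only. Whole-number reads per coding kilobase are in another unit, and the report gives them beside TPM. With 2 libraries, leaving out either cannot move a mean by more than its SD, so this says nothing of stability. Shares moved by more than their SD in 11 cases when reads replaced TPM. With posterior means the leading share moved in 3 genes: to 39.0% for Foxp4-204, 79.6% for Runx2-202 and 91.3% for Runx3-201. Depth limits Foxp4 most, with 111 and 94 reads in libraries 1 and 2.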
